A study of Homo sapiens with 4 samples.

Results

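Cell division depends on a set of genes that build the mitotic spindle, attach chromosomes to it and check those attachments before the chromosomes part. Here 60 of these genes, which encode mitotic kinases and cyclins, checkpoint proteins, kinetochore subunits, kinesin motors, spindle and cytokinesis proteins, chromosome structure proteins and their transcription factors, were taken by symbol from a table of 16057 genes. All 60 symbols were found, once each. The cells were MM.1S, an established human multiple myeloma line, and both groups were the same line in the same serum-supplemented medium. JG342 blocks the chaperone HSP70 at an allosteric site. One group was exposed to it at 350 nM and the other to the solvent DMSO, each for 26 h. Each group had 2 libraries from total RNA, numbered 1 and 2 and described as biological duplicates, so p-values rest on 2 cultures per group of 1 line. They also draw the variance of each gene largely from other genes at a like level.

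Mitotic transcripts are made in waves. In G1 the DREAM complex holds these genes off, and from late S phase MYBL2 and then FOXM1 join the MuvB core and switch them on through a promoter element called the cell cycle genes homology region (CHR). Cyclin B with CDK1 drives entry into mitosis, the spindle checkpoint restrains CDC20 until kinetochores are attached, and the anaphase-promoting complex then marks securin and cyclin B for destruction. Since these genes are expressed mainly by dividing cells, their levels are widely read as a measure of proliferation, and myeloma lines in culture divide steadily.

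Values are TPM, a transcript abundance scaled to a fixed library total and divided by transcript length, so that genes can be compared. The values sum to between 994463 and 994718 in the 4 libraries. Sequencing depth is not recorded in TPM. Plasma cell identity was checked with 10 markers, which had means from 26.2 TPM (CD38) to 7860 TPM (JCHAIN) over the libraries. JCHAIN had 9907 and 10383 TPM with DMSO and 5732 and 5431 TPM with JG342, and the other 9 markers summed to 5209 and 4454 TPM with DMSO and 5209 and 4820 TPM with JG342. Single markers within that sum moved both ways. IRF4 had 353 and 353 TPM with DMSO and 589 and 615 TPM with JG342. TNFRSF17 had 761 and 581.5 TPM with DMSO and 517 and 463 TPM with JG342. The summed markers of fibroblasts were at 0.13 to 0.22 TPM, those of T cells at 3.21 to 7.84 TPM and those of epithelium at 6.15 to 11.1 TPM, and the monocyte markers were carried by LYZ at 37.0 to 46.2 TPM while CD14 and CSF1R were under 1 TPM. Unless stated otherwise, paired values are given in the order replicate 1, replicate 2. A log2 fold change is the difference of the group means of log2(TPM + 1), JG342 minus DMSO, with its standard error (SE). A gene was called where the limma p, adjusted over the 12042 fitted genes by the Benjamini-Hochberg method, was under 0.05.

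All 60 mitotic genes had a lower mean with JG342 than with DMSO, and 41 of them fell past the threshold while none rose. Over all fitted genes 7.62% were called lower and 10.8% higher, 18.4% in all. The log2 fold changes of the 60 genes ran from −0.93 (DLGAP5) to −0.10 (KIF2C) with a median of −0.57, where the median of all fitted genes was 0.03. Together the 60 genes held 0.524% and 0.616% of all TPM in DMSO, and 0.359% and 0.419% with JG342. In bulk RNA, fewer dividing cells and less transcript per dividing cell cannot be told apart. For 54 of the 60 genes both JG342 libraries were below both DMSO libraries, against 28.2% of all fitted genes, and the exceptions were CDC20, CDC25B, CDC25C, CDCA8, CENPH and KIF2C.

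**Figure D1:**
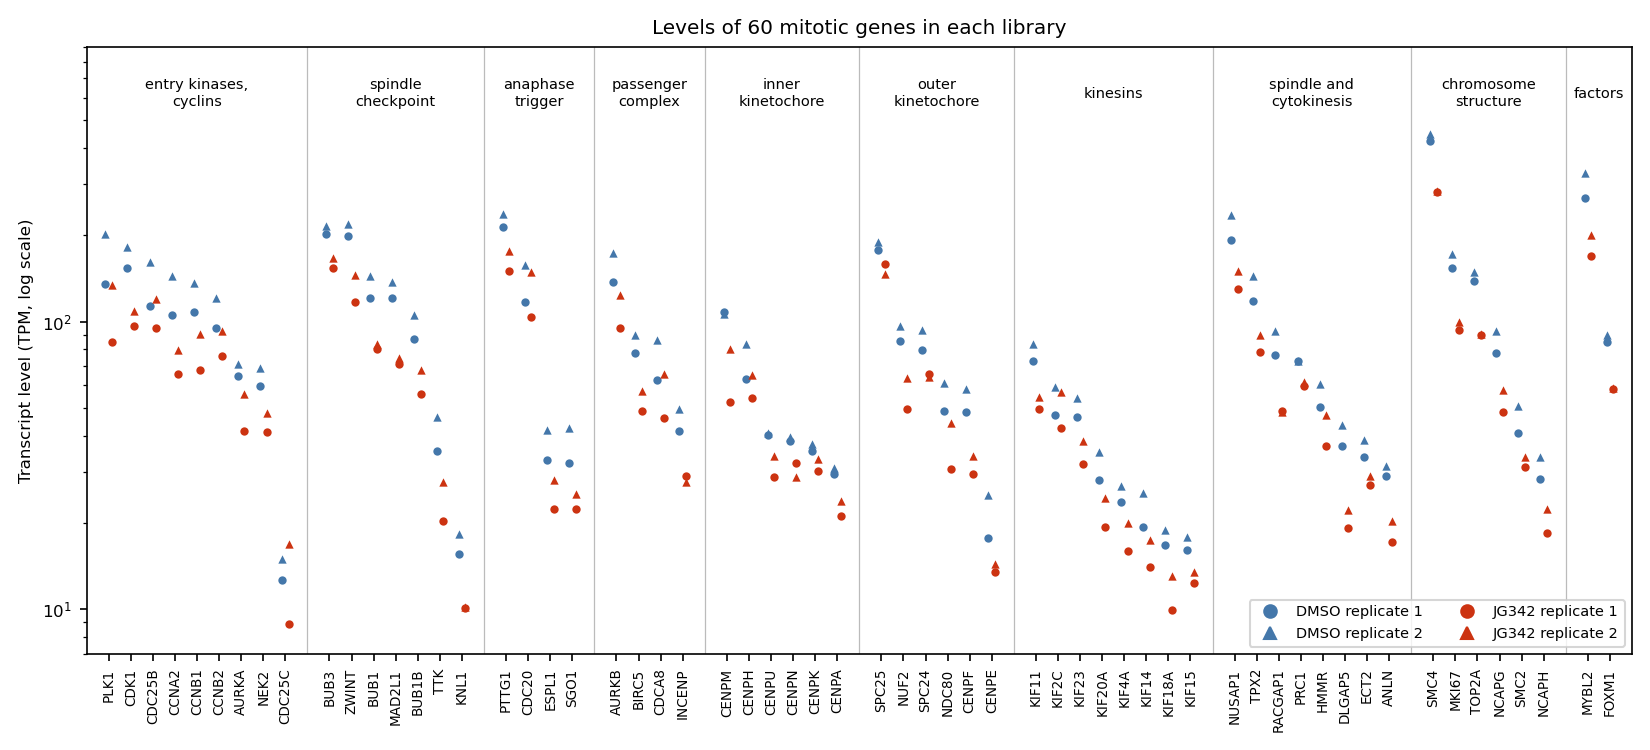
Transcript level (TPM, log axis) of the 60 genes in each library, grouped by role and ordered by DMSO mean within a role; blue marks DMSO, red marks JG342, circles replicate 1 and triangles replicate 2. The red points lie below the blue ones for 54 genes, and the triangles lie above the circles of their colour for most.

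How many genes were called depended on the libraries and on the fit. Without DMSO replicate 2, 8 of the 60 passed (1.59% of all genes lower). Without JG342 replicate 1, 22 passed (5.70%). The fit without the filter on low values left 9 (1.84%), and the fit without a mean-variance trend left 22 (4.37%). With the replicate number as a block 56 passed (15.7%), and every one of the 41 was among them. That fit has 1 residual degree of freedom and takes its variances from the expression level alone. Its p-values are therefore given beside those of the block with scaling to equal medians, which also called 56. Over all 12042 fitted genes, block and scaling called 2310 lower, where the block alone called 1891 and the fit without either called 917.

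The 2 replicates of a treatment differed in the same direction for nearly all of these genes. DMSO replicate 2 was above DMSO replicate 1 for 58 of the 60, against 58.9% of fitted genes, and JG342 replicate 2 was above JG342 replicate 1 for 55, against 43.3%. The median gap between replicates was 0.24 on the log2 scale in DMSO and 0.23 in JG342, where it was 0.04 and −0.03 over all fitted genes. The part of this replicate difference in the calls was not tested. The treatment difference had nearly the same median in both same-numbered pairs, −0.55 in pair 1 and −0.56 in pair 2. It was below 0 in both pairs for 59 of the 60 genes, against 34.9% of fitted genes. CDC25C was the exception, with −0.47 in pair 1 and 0.17 in pair 2. Across the 60 genes, which share these 4 libraries, the fold changes of the pairs correlated at 0.60 (Pearson r) and 0.64 (Spearman rho), and over all fitted genes at 0.75 and 0.72.

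**Figure D2:**
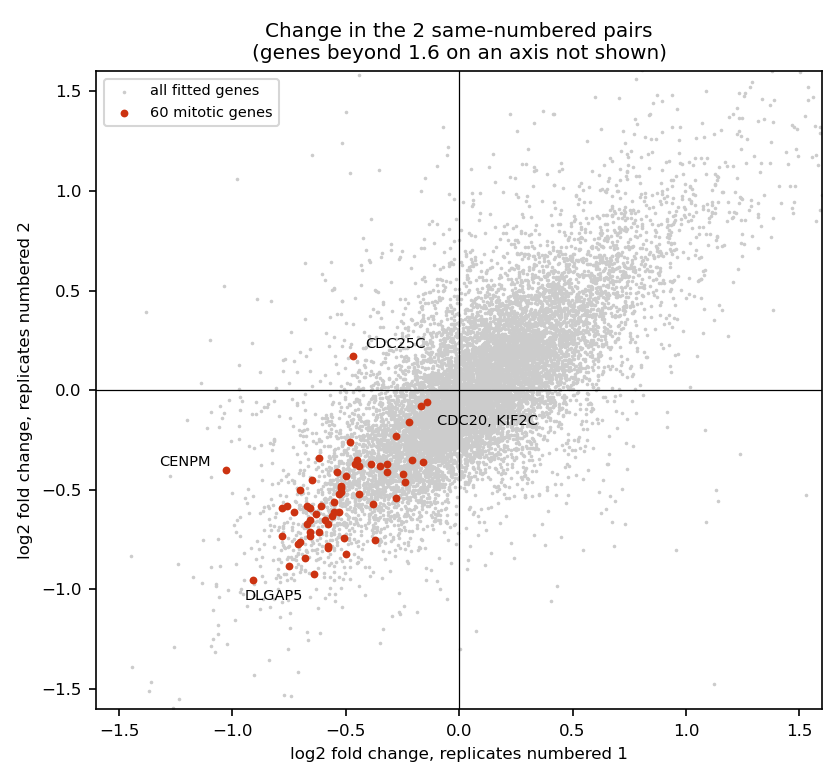
Log2 fold change on the log2(TPM + 1) scale in the pair numbered 1 (horizontal axis) and the pair numbered 2 (vertical axis), in grey for all fitted genes within the axes and in red for the 60 mitotic genes. The red points lie in the lower left with the exception of CDC25C, and CENPM has the widest difference between pairs among the called genes.

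Levels with DMSO spanned from 13.8 TPM for CDC25C to 436 TPM for SMC4, with a median of 73.9 TPM, where the median fitted gene had 20.7 TPM. SMC4 stood alone at the top, MYBL2 came next at 298 TPM, and both kept these ranks with JG342. PTTG1, NUSAP1, BUB3 and ZWINT followed at 225 to 208 TPM, and neighbours among these 4 overlapped between replicates. From rank 7 (SPC25, 183 TPM) to rank 21 (CENPM, 107 TPM) every neighbouring pair overlapped. CDC20 moved from rank 13 with DMSO to rank 8 with JG342, and MKI67 from rank 10 to rank 13. The level with DMSO was only weakly related to the change across the 60 genes (Pearson r −0.19, Spearman rho −0.20).

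Among the 9 kinases, cyclins and phosphatases of mitotic entry, 5 fell and 4 were not called, with a median log2 fold change of −0.52. CDK1 (NM_001170406), the kinase that drives entry, had 153 and 182 TPM with DMSO and 96.4 and 109 TPM with JG342. Its groups did not overlap, and its log2 value fell by 0.70 ± 0.12 SE (limma adjusted p 0.00533). CCNA2 (NM_001237), cyclin A2, which partners CDK2 and CDK1 up to prometaphase, went from 106 and 144 TPM to 65.5 and 79.8 TPM, a log2 fold change of −0.76 ± 0.16 (limma adjusted p 0.0117). CCNB1 (NM_001354844), cyclin B1, went from 108 and 136 TPM to 67.9 and 90.9 TPM, at −0.62 ± 0.16 (limma adjusted p 0.0261). The groups of both cyclins were apart. The call of CCNB1 was lost with quantile normalization, which gives all libraries the same distribution of values (limma adjusted p 0.053). It was also lost without the mean-variance trend and without the filter on low values (limma adjusted p 0.0766 and 0.122). With block and scaling it was kept (limma adjusted p 0.000684). CCNB2 (NM_004701), cyclin B2, had 94.7 and 120.4 TPM with DMSO and 75.8 and 93.0 TPM with JG342. Its groups were separated by less than 2 TPM, and its log2 fold change of −0.34 ± 0.14 stayed short of the threshold (limma adjusted p 0.126; 0.00147 with the replicate block, 0.00467 with block and scaling).

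Of the other mitotic kinases, AURKA and NEK2 fell and PLK1 was not called. AURKA (NM_001323303), which matures centrosomes and activates PLK1, fell from 64.7 and 71.3 TPM to 41.7 and 56.0 TPM, a log2 fold change of −0.48 ± 0.14 (limma adjusted p 0.0476). The call of AURKA was lost with scaling to equal medians (limma adjusted p 0.0563) and without the mean-variance trend (limma adjusted p 0.106). A fit on log2(TPM + 0.1), quantile normalization and a fit without the low-value filter also lost it (limma adjusted p 0.0506, 0.0698 and 0.147). With block and scaling it was kept (limma adjusted p 0.00476). PLK1 (NM_005030) had 135 and 202 TPM with DMSO and 85.2 and 134 TPM with JG342. The higher JG342 library of PLK1 nearly reached the lower DMSO library, and its log2 fold change of −0.63 ± 0.22 stayed short of the threshold (limma adjusted p 0.0854; 8.59e-11 with the block, 0.000594 with block and scaling). Within the same-numbered pairs PLK1 differed by −0.66 and −0.59. It had one of the widest replicate gaps, 0.58 in DMSO and 0.64 in JG342, and leaving out 1 library at a time moved its log2 fold change between −0.95 and −0.30. PLK1 passed without DMSO replicate 1 (limma adjusted p 0.0445) and without JG342 replicate 2 (limma adjusted p 0.00868). NEK2, a centrosome kinase, fell by 0.52 (limma adjusted p 0.0208). The phosphatases that activate CDK1 were not called. CDC25B had a log2 fold change of −0.34 (limma adjusted p 0.200; 0.00120 with the block, 0.00492 with block and scaling), with overlapping groups. Within the same-numbered pairs CDC25B differed by −0.25 and −0.42. CDC25C (NM_001287582) had 12.7 and 14.9 TPM with DMSO and 8.87 and 16.9 TPM with JG342, so its JG342 libraries lay on either side of both DMSO libraries. Its log2 fold change was −0.15 ± 0.25 (limma adjusted p 0.711).

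Each of the 7 spindle checkpoint genes fell, with a median log2 fold change of −0.68. MAD2L1 (NM_002358), which encodes MAD2, the protein that captures CDC20 at unattached kinetochores, had 120.4 and 138 TPM with DMSO and 71.1 and 74.4 TPM with JG342. The JG342 libraries were close together and well below DMSO, a log2 fold change of −0.81 ± 0.11 (limma adjusted p 0.00181). BUB1 (NM_001278616), a checkpoint kinase at the kinetochore, went from 120.5 and 144 TPM to 80.5 and 83.7 TPM, at −0.68 ± 0.11 (limma adjusted p 0.00520). The checkpoint kinase TTK fell by 0.76, its kinetochore scaffold KNL1 by 0.68, ZWINT, which helps recruit the RZZ complex, by 0.67, and BUB1B, which encodes BUBR1, by 0.63, with limma adjusted p from 0.00742 to 0.0190. BUB3 (NM_001007793), the carrier of BUB1 and BUBR1, changed least in this group. It had 202 and 215 TPM with DMSO and 154 and 166 TPM with JG342, with separate groups and a log2 fold change of −0.38 ± 0.09 (limma adjusted p 0.0251).

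Of the 4 genes of the anaphase trigger, 3 fell and CDC20 was not called. CDC20 (NM_001255), the activator of the anaphase-promoting complex that the checkpoint restrains, had 117 and 157 TPM with DMSO and 104 and 148 TPM with JG342. Its groups overlapped almost fully and its log2 fold change was −0.13 ± 0.18 (limma adjusted p 0.669; 0.288 with the block, 0.105 with block and scaling). It ran from −0.38 to 0.13 as each library was left out, and was above 0 without DMSO replicate 2 or without JG342 replicate 1. Within the same-numbered pairs CDC20 differed by −0.17 and −0.08. PTTG1 (NM_001282382), securin, which holds separase inactive, fell from 212 and 237 TPM to 149 and 176 TPM, at −0.47 ± 0.11 (limma adjusted p 0.0209). ESPL1, separase itself, fell by 0.56 (limma adjusted p 0.0390). SGO1 (NM_001012409), shugoshin, the guardian of centromeric cohesion, went from 32.2 and 42.8 TPM to 22.3 and 25.2 TPM, at −0.62 ± 0.15 (limma adjusted p 0.0227), with no overlap.

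The chromosomal passenger complex places Aurora B at the inner centromere and later at the midzone. INCENP (NM_001040694), its scaffold, had 41.5 and 49.7 TPM with DMSO and 29.04 and 27.74 TPM with JG342. These groups were far apart, at −0.66 ± 0.12 (limma adjusted p 0.00852). BIRC5 (NM_001012270), survivin, fell from 77.9 and 90.03 TPM to 48.9 and 57.2 TPM, at −0.65 ± 0.12 (limma adjusted p 0.00828). AURKB (NM_001256834), the kinase, fell from 137 and 173 TPM to 95.2 and 124 TPM, at −0.50 ± 0.15 (limma adjusted p 0.0482). The call of AURKB was lost with scaling to equal medians (limma adjusted p 0.0572) and without the mean-variance trend (limma adjusted p 0.116). A fit on log2(TPM + 0.1), quantile normalization and a fit without the low-value filter also lost it (limma adjusted p 0.0519, 0.0924 and 0.164). With block and scaling it was kept (limma adjusted p 0.00128). None of these 3 genes had overlapping groups, where 28.2% of all fitted genes had both JG342 libraries below both DMSO libraries. CDCA8 (NM_001256875), borealin, had 62.8 and 86.3 TPM with DMSO and 46.1 and 65.9 TPM with JG342. Its JG342 replicate 2 lay above DMSO replicate 1, and its log2 fold change of −0.41 ± 0.19 stayed short of the threshold (limma adjusted p 0.164; 0.000345 with the block, 0.00338 with block and scaling). Within the same-numbered pairs CDCA8 differed by −0.44 and −0.38.

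Genes of the centromere and inner kinetochore had the smallest median of the roles, −0.36, and 2 of the 6 were called. CENPA (NM_001042426), the histone H3 variant that marks the centromere, fell from 29.5 and 30.9 TPM to 21.2 and 23.7 TPM, at −0.41 ± 0.12 (limma adjusted p 0.0442). CENPM (NM_001002876) had 108 and 106 TPM with DMSO and 52.3 and 80.5 TPM with JG342. It fell by 0.71 ± 0.17 (limma adjusted p 0.0230), and its JG342 libraries differed from each other by 0.61 on the log2 scale. The call of CENPM was lost with quantile normalization, without the trend and without the low-value filter (limma adjusted p 0.0577, 0.0698 and 0.121). With block and scaling it was kept (limma adjusted p 0.00487). CENPK (NM_001267038) had 35.5 and 37.5 TPM with DMSO and 30.2 and 33.4 TPM with JG342, at −0.19 ± 0.11 that stayed short of the threshold (limma adjusted p 0.271). The other inner kinetochore genes, CENPU, CENPN and CENPH, had log2 fold changes of −0.37, −0.35 and −0.28 and limma adjusted p of 0.0661, 0.0663 and 0.223 (0.00571, 0.00953 and 0.0187 with the block, 0.0125, 0.00853 and 0.0108 with block and scaling).

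Among the 6 outer kinetochore and corona genes, 4 fell. The NDC80 complex, which binds the microtubule end, is built from equal numbers of 4 proteins, and their transcripts were at unequal levels. SPC25 (NM_020675) had 177 and 189 TPM with DMSO and 158 and 146 TPM with JG342, and SPC24 had DMSO means of 86.6 TPM, NUF2 of 91.0 TPM and NDC80 of 55.1 TPM. Part of the SPC25 transcript closely matches other genes, and the share of this in its level was not tested. NUF2 fell by 0.69 ± 0.13 (limma adjusted p 0.00981) and SPC24 by 0.41 ± 0.11 (limma adjusted p 0.0339). NDC80 (NM_006101) had 48.9 and 61.2 TPM with DMSO and 30.8 and 44.5 TPM with JG342, at −0.55 ± 0.18, and was not called (limma adjusted p 0.0617; 4.3e-06 with the block, 0.00217 with block and scaling). SPC25, at −0.26 ± 0.10, was not called either (limma adjusted p 0.09; 0.0101 with the block, 0.0124 with block and scaling). The ratio of SPC25 to NUF2 transcripts was 2.06 and 1.96 in DMSO and 3.20 and 2.30 in JG342. SPC25 to SPC24 was 2.22 and 2.02 against 2.41 and 2.28, and SPC25 to NDC80 was 3.62 and 3.08 against 5.14 and 3.28, which overlapped. CENPF (NM_016343), a large corona protein, fell from 48.3 and 58.5 TPM to 29.5 and 34.2 TPM, at −0.73 ± 0.13 (limma adjusted p 0.00776). CENPE (NM_001286734), the kinesin of the corona, fell from 17.7 and 24.9 TPM to 13.4 and 14.4 TPM, at −0.56 ± 0.17 (limma adjusted p 0.0480). The call of CENPE was lost without the mean-variance trend (limma adjusted p 0.0837) and kept with block and scaling (limma adjusted p 0.00388). A fit on log2(TPM + 5) and a fit without the low-value filter also lost this call (limma adjusted p 0.0503 and 0.149). The groups of all 6 genes were apart, and 28.2% of all fitted genes also had both JG342 libraries below both DMSO libraries.

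Of the 8 kinesins, 4 fell and 4 were not called, with a median log2 fold change of −0.49. KIF11 (NM_004523), the Eg5 motor that pushes spindle poles apart, had 72.9 and 83.9 TPM with DMSO and 49.5 and 54.8 TPM with JG342, at −0.58 ± 0.11 (limma adjusted p 0.0103). KIF18A (NM_031217), which damps chromosome oscillation at the metaphase plate, went from 16.7 and 18.9 TPM to 9.94 and 13.0 TPM, at −0.60 ± 0.16 (limma adjusted p 0.0311). KIF20A (NM_005733), which brings Aurora B to the midzone, went from 28.1 and 35.2 TPM to 19.3 and 24.3 TPM, at −0.52 ± 0.16 (limma adjusted p 0.0491). The call of KIF20A was lost without the mean-variance trend (limma adjusted p 0.0928) and kept with block and scaling (limma adjusted p 0.00232). A fit on log2(TPM + 0.1), quantile normalization and a fit without the low-value filter also lost this call (limma adjusted p 0.0507, 0.0548 and 0.146). These 3 motors had no overlap between groups, where 28.2% of all fitted genes had both JG342 libraries below both DMSO libraries. KIF23, a part of centralspindlin, fell by 0.51 (limma adjusted p 0.0296). KIF2C (NM_001297655), the microtubule depolymerase MCAK, had 47.3 and 59.1 TPM with DMSO and 42.8 and 56.9 TPM with JG342. The groups of KIF2C overlapped, its log2 fold change was −0.10 ± 0.16 (limma adjusted p 0.704; 0.505 with the block, 0.180 with block and scaling), and it was 0.06 without DMSO replicate 2 and 0.10 without JG342 replicate 1. Within the same-numbered pairs KIF2C differed by −0.14 and −0.06. KIF14, KIF4A and KIF15 had log2 fold changes of −0.48, −0.47 and −0.36 with limma adjusted p of 0.0746, 0.0523 and 0.0948 (0.00159, 0.00131 and 0.0317 with the block, 0.00418, 0.00553 and 0.0161 with block and scaling).

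Spindle assembly and cytokinesis held the largest change of the 60 genes. DLGAP5 (NM_001146015), the spindle protein HURP that stabilizes kinetochore fibres, had 36.9 and 43.7 TPM with DMSO and 19.2 and 22.1 TPM with JG342, a fall of 0.93 ± 0.13 on the log2 scale (limma adjusted p 0.00276). RACGAP1, the partner of KIF23 in centralspindlin, fell by 0.78 ± 0.12 (limma adjusted p 0.00338), with JG342 libraries at 49.0 and 48.6 TPM. TPX2 (NM_012112), the spindle activator of Aurora A, fell from 118 and 143 TPM to 78.4 and 89.7 TPM, at −0.62 ± 0.12 (limma adjusted p 0.0103). ANLN, a scaffold of the contractile ring, and NUSAP1, which bundles spindle microtubules, fell by 0.67 and 0.60. PRC1 (NM_001267580), the crosslinker of midzone microtubules, had 73.2 and 72.9 TPM with DMSO and 59.9 and 61.8 TPM with JG342. PRC1 had replicates within 2 TPM of each other and groups that did not overlap, yet its log2 fold change of −0.26 ± 0.10 stayed short of the threshold (limma adjusted p 0.0997; 0.0314 with the block, 0.0172 with block and scaling). HMMR and ECT2, the latter an activator of RhoA at the cleavage site, had log2 fold changes of −0.40 and −0.36 (limma adjusted p 0.0932 and 0.0688; 0.00119 and 0.00824 with the block, 0.00527 and 0.00717 with block and scaling).

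The 6 genes of chromosome structure all fell, with a median log2 fold change of −0.64. MKI67 (NM_001145966), the Ki-67 protein that coats mitotic chromosomes and is the usual proliferation marker, had 153 and 171 TPM with DMSO and 93.2 and 99.8 TPM with JG342, at −0.74 ± 0.10 (limma adjusted p 0.00233). TOP2A (NM_001067), the topoisomerase that untangles sister chromatids, went from 139 and 149 TPM to 89.7 and 90.6 TPM, at −0.67 ± 0.10 (limma adjusted p 0.00276). JG342 replicates of TOP2A differed by 0.01 on the log2 scale. SMC4 and SMC2, the ATPase pair of condensin, were at 436 and 46.0 TPM with DMSO. SMC4 fell by 0.62 ± 0.09 (limma adjusted p 0.00275), and SMC2 (NM_001042550) went from 41.1 and 50.8 TPM to 31.4 and 33.9 TPM, at −0.47 ± 0.13 (limma adjusted p 0.0360). The condensin I subunits NCAPG and NCAPH fell by 0.67 and 0.59, and their ratio stayed between 2.60 and 2.75 in all 4 libraries.

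Both transcription factors of the mitotic programme fell. FOXM1 (NM_001243088) had 84.8 and 90.1 TPM with DMSO and 58.4 and 58.7 TPM with JG342, at −0.57 ± 0.10 (limma adjusted p 0.00633). MYBL2 (NM_001278610), B-Myb, went from 268 and 328 TPM to 169 and 200.04 TPM, at −0.69 ± 0.13 (limma adjusted p 0.00780). Neither factor had overlapping groups, where 28.2% of all fitted genes had both JG342 libraries below both DMSO libraries.

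**Figure D3:**
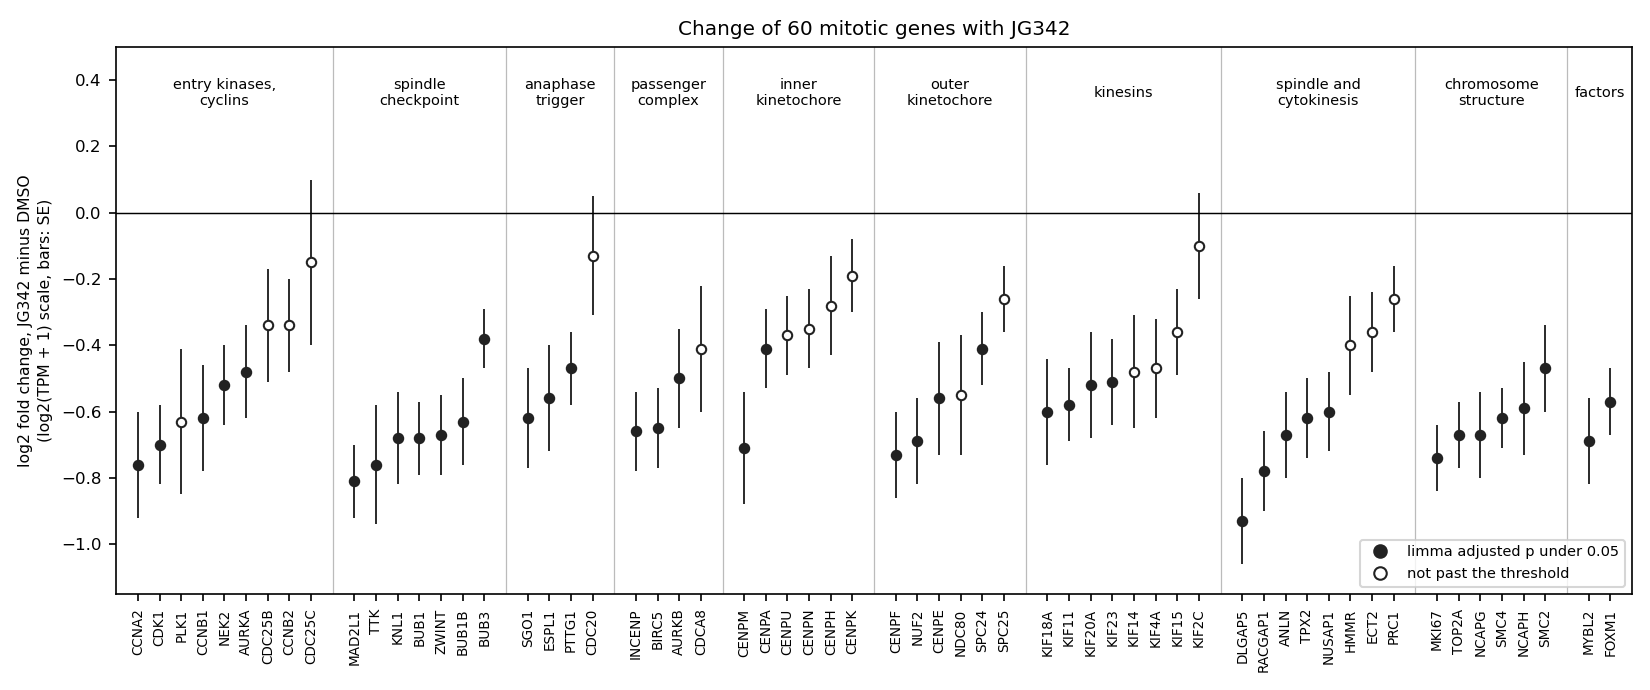
Log2 fold change of each of the 60 genes (points) with its limma standard error (bars), by role; filled points passed an adjusted p under 0.05 and open points did not. All points lie below 0, those of the spindle checkpoint and chromosome structure genes are all filled, and CDC25C, CDC20 and KIF2C have bars that cross 0.

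The promoters of the 60 genes were searched for the CHR, by which MuvB complexes bind, and 4 that hold it are shown. Windows from 250 bases before to 50 bases after the annotated start were found for 50 of the 60 genes in RefSeq (GRCh38.p14), as 63 windows. They were not found for AURKA, BIRC5, BUB3, CENPH, CENPM, FOXM1, KNL1, RACGAP1, TPX2 and TTK. The CHR was searched as TTTGAA or TTCGAA, the binding box of NF-Y as CCAAT, and E2F sites as TTCCCGC or TTCGCGC and also as TTGCCGC or TTGGCGC, all as exact matches on both strands. A CHR match was in at least 1 window of 37 of the 50 genes (74.0%), where 15.7% of 9617 fitted genes with a window and 16.4% of all 35116 windows had one. A CCAAT match was in 39 of the 50 (78.0%), against 43.4% of fitted genes, and an E2F match in 18 (36.0%), against 24.9%. Both a CHR and a CCAAT match stood in the same window for 29 genes (58.0%), against 6.62% of fitted genes. Mitotic genes as a class are switched on through the CHR, so these shares describe the list and not its change with JG342.

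The 250 bases before the start are printed 5′ to 3′ on the gene's strand, in lower case with CHR and CCAAT matches of either strand in capitals. For CDK1 the window of the more upstream of its annotated starts is shown.
CDK1, chr10:60778081-60778330, plus strand: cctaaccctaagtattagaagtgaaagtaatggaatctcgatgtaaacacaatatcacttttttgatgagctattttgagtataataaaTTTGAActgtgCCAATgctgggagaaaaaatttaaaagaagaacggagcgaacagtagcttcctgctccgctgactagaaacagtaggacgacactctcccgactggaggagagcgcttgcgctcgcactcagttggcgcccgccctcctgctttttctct
CCNB2, chr15:59104896-59105145, plus strand: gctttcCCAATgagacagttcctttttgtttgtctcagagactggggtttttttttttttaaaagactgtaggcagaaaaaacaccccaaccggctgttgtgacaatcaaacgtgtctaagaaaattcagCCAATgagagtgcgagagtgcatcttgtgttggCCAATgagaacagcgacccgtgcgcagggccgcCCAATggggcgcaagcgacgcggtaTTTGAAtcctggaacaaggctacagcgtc
PLK1, chr16:23678639-23678888, plus strand: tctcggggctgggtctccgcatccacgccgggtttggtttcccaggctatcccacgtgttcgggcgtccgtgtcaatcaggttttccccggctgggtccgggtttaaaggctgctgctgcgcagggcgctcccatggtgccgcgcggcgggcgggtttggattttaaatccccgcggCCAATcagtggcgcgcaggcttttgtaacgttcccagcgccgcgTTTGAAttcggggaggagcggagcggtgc
TOP2A, chr17:40417897-40418146, minus strand: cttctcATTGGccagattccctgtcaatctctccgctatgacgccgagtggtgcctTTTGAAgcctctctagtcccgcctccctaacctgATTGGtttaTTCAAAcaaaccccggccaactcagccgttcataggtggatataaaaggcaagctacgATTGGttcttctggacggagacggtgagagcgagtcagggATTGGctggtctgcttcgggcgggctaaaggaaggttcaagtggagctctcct
CCNB2 and PLK1 each have a CHR whose first base lies at −29 from the start, with the nearest CCAAT at −54 in CCNB2 and at −73 in PLK1. TOP2A has 2 CHR matches, at −194 and −151, and 4 CCAAT matches. CDK1 has 1 of each, at −161 and −150. CDK1 and TOP2A were called and CCNB2 and PLK1 were not. The median log2 fold change was −0.58 for the 37 genes with a CHR match, of which 22 were called, and −0.52 for the 13 without one, of which 10 were called. CDC20 and CDC25C, which had log2 fold changes near 0, have a CHR match, and KIF2C has no match to any of the motifs.

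Further genes of mitosis, not among the 60, were read from 6 lists. Of 134 listed, 133 were in the table and all of these were fitted, with 51 called lower, 4 called higher and a median log2 fold change of −0.29. That is 41.4% called, where 18.4% of all fitted genes were called, 7.62% lower and 10.8% higher. Of 25 further kinetochore genes 13 fell and none rose, with OIP5, which loads CENPA, at −0.83 and SKA3 at −0.77 (limma adjusted p 0.0103 and 0.0105). The centrosome and spindle list had 17 of 35 lower and none higher, led by CDCA3 at −0.78 and the microcephaly gene ASPM at −0.72 (limma adjusted p 0.00378 and 0.0179). Among 17 cohesin and condensin genes 7 fell, led by ESCO2, a cohesin acetyltransferase, at −0.93 and CDCA5, sororin, at −0.83 (limma adjusted p 0.00304 and 0.00359).

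Of the 21 genes of the anaphase-promoting complex and its partners, 3 fell and 1 rose, 19.0% against 18.4% of all fitted genes, so the list was near the background. They were TRIP13, the ATPase that recycles MAD2, at −0.95, FBXO5, an inhibitor of the complex, at −0.55, the ubiquitin-conjugating enzyme UBE2C at −0.51 and the subunit ANAPC16 at 0.52. UBE2C had 227 and 245 TPM with DMSO and 142 and 193 TPM with JG342 (limma adjusted p 0.0364). The other subunits on the list were not called and lay between −0.30 (CDC23) and 0.15 (ANAPC13). The list's median was −0.14.

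The list of entry brakes and mitotic phosphatases, which also held other genes such as PBK and CCNF, had genes that moved both ways. GADD45A, a damage-induced gene that inhibits CDK1, rose from 41.6 and 37.3 TPM to 74.9 and 86.1 TPM, by 1.01 ± 0.12 (limma adjusted p 0.00107). CDKN1A, the CDK inhibitor p21, rose from 111 and 95.2 TPM to 172 and 132 TPM, by 0.55 ± 0.14 (limma adjusted p 0.0257). WEE1, the kinase that holds CDK1 inactive, fell from 50.4 and 54.8 TPM to 39.5 and 38.1 TPM, by 0.43 ± 0.11 (limma adjusted p 0.0258). The groups of these 3 genes did not overlap. In all 7 of the 17 genes of the list fell and 2 rose, 52.9% against 18.4% of all fitted genes. Its largest falls were those of the mitotic kinase PBK and of CCNF, both at −0.88 (limma adjusted p 0.00131 for PBK). Of the 18 DREAM and MuvB regulators, 4 fell and 1 rose, 27.8% against 18.4% of all fitted genes. The gene that rose was LIN37, by 0.40 (limma adjusted p 0.0496), and those that fell included E2F2 at −0.99, LIN9 at −0.59 and E2F1 at −0.47 (limma adjusted p 0.000754, 0.0336 and 0.0161). Replication genes, the group nearest to mitosis in the cycle, had a median of −0.53 over 37 genes. Of these 27 were lower and none higher, 73.0% against 18.4% of all fitted genes. They were led by RRM2 at −1.01 and MCM10 at −0.86 (limma adjusted p 0.000357 and 0.00460). Whether the replication and mitotic lists differ was not tested.

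**Figure D4:**
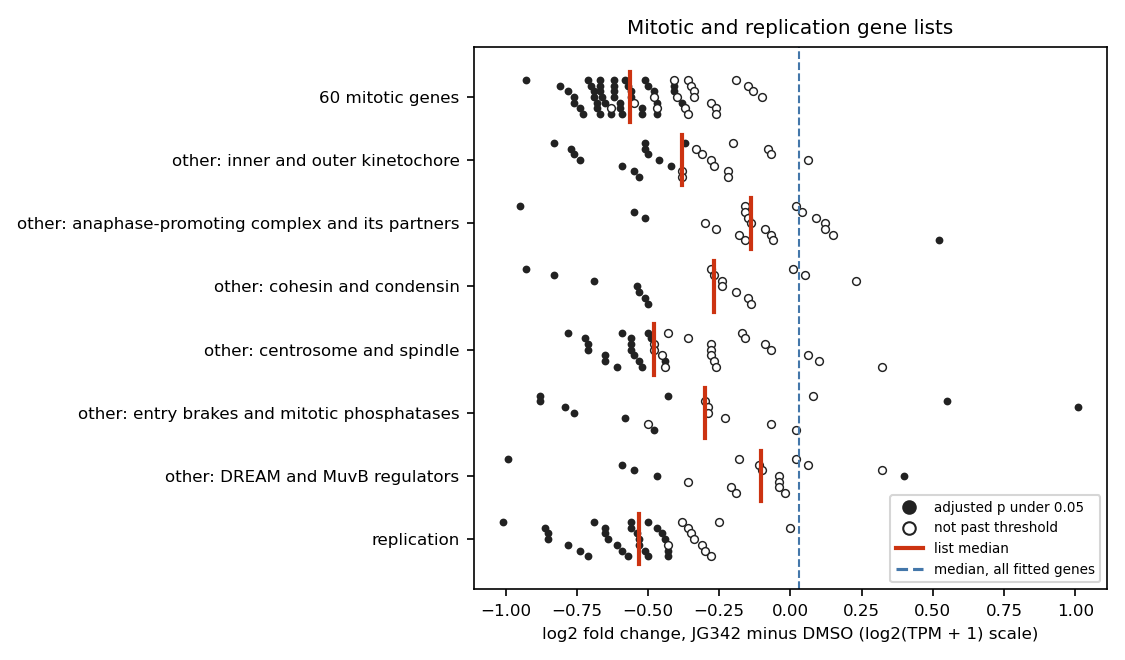
Log2 fold change (log2(TPM + 1) scale) of the 60 genes, of 6 further lists of mitotic genes and of replication genes; each point is a gene, filled where its adjusted p was under 0.05, red bars are list medians and the dashed line is the median of all fitted genes. The 60 genes lie wholly below 0 and the medians of the regulator and anaphase-promoting complex lists lie nearest to the dashed line.

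Sequence shared with other genes touches some of the values. With GENCODE transcripts, matches of at least 95% identity over at least 20% of the transcript were found for AURKA and CDC20 (pseudogenes AURKAP1 and CDC20P1), KIF4A (KIF4B, at 95.3% over its whole length), SPC25, NUSAP1 and PRC1. Those of SPC25 were PARP15, at 95.1% over 34.7% of the transcript, and SPIN3, at 95.7% over 33.9%. Exons of 14 of the 60 genes overlap those of a coding gene on the opposite strand, by 42 to 1561 bases for the longest shared exon. FOXM1 shares 651 bases with ITFG2, and CENPN shares 381 bases with CMC2, as does SMC4 with IFT80. The longest are those of NCAPG with LCORL and SMC4 with TRIM59, of 1561 and 1306 bases, and the strandedness of the libraries is not given in the sources used here. LCORL had 29.8 and 29.4 TPM with DMSO and 28.7 and 27.6 TPM with JG342, and TRIM59 had 36.9 and 38.8 TPM and 35.8 and 33.6 TPM. KIF4B was listed at 0.06 TPM in DMSO replicate 1 and at 0 in the other libraries. The part of shared sequence in the changes was not tested.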

How the data were processed

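RNA from 4 MM.1S libraries was sequenced on a BGISEQ-500 by a service provider, per the labels' protocols. The authors deposited 1 TPM value per gene and library, with a symbol and a RefSeq accession per gene. The unit was taken from the values, which sum to 994463 to 994718 in the libraries. HISAT2 2.0.4, Bowtie2 2.2.5 and RSEM 1.2.12 are named, without a role, per the submitters' processing notes; the genome build and annotation are not given in the sources used here. All columns of values map to a labelled sample.

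Genes averaging 1 TPM or more across all 4 libraries, 12042 of 16057, entered the fit as log2(TPM + 1) with limma 3.58.1 in R 4.3.3 (mean-variance trend, treatment as the only term, two-sided, Benjamini-Hochberg adjustment over all fitted genes, threshold 0.05). The prior of this fit had 6.89 degrees of freedom against 2 residual ones, so most of a gene's variance came from genes at a like level. Fold changes on this scale understate those of low genes. A count test was not applied, since TPM are not counts. The fit was run first on simulated data, with independent noise in each library and no shared replicate difference. That run therefore cannot speak to the shared replicate difference of the 60 genes. All 60 genes passed the filter on low values. An exact permutation test of 2 against 2 libraries cannot give a p below 0.333, so none was used for single genes.

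Both treatments use the numbers 1 and 2, and libraries with the same number also start alike in their sample description, so the numbers were taken to pair them. After subtracting each treatment mean, paired libraries correlated at 0.27 over all fitted genes and 0.39 over the 60. The fit with the number as a block had an infinite prior, that is, variances set by expression level alone; with median scaling its prior had 7.49 degrees of freedom.

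The 60 genes, the further lists and the tests were chosen with earlier results of these data known. Members were given by name; by a fixed rule, values in every library are printed for 22 members listed by name, and for the lowest and highest fold change of each of 10 roles, and of the other genes the 2 called with the largest change in each further list, and CDKN1A, WEE1, UBE2C and E2F1 are named. LCORL, TRIM59, KIF4B, ITFG2, CMC2, IFT80, CCNF, ANAPC16, ANAPC13, CDC23 and LIN37 were named after their values were seen. The alternatives changed the pseudocount, filter, scaling, block, trend and libraries. Near-identical transcripts were searched with BLAST 2.17.0 in GENCODE 29, with 58 members matched by accession and 2 by symbol.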

Additional observations from a re-analysis of the deposited data

How the results depend on the processing

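The log2 fold change was below 0 for 58 of the 60 genes without DMSO replicate 2, for 57 without JG342 replicate 1 and for all 60 under every other alternative run. The sign turned for CDC20 (0.08) and KIF2C (0.06) without DMSO replicate 2, and for CDC20 (0.13), CDC25C (0.28) and KIF2C (0.10) without JG342 replicate 1; none of these 3 genes was called. Over the libraries left out, CDC20 ran from −0.38 to 0.13, CDC25C from −0.58 to 0.28 and KIF2C from −0.30 to 0.10. The number called of the 60 was 41, and 9 without the filter on low values, 22 without the mean-variance trend, and 8 to 46 as each library was left out, with DMSO replicate 2 giving the lowest. BUB1, CDK1, DLGAP5, MAD2L1, MKI67, RACGAP1, SMC4 and TOP2A were called in all 14 fits. The median of the 60, −0.57, became −0.58 and −0.50 with pseudocounts of 0.1 and 5 TPM, −0.63 with median scaling, with or without the replicate block, and ran from −0.68 to −0.42 as each library was left out. Median scaling moved the median of all genes from 0.03 to −0.03. Over all genes 2221 were called, 828 without the filter, 4207 with the replicate block, 3985 with the block and median scaling, and 767 to 1825 as each library was left out. The other mitotic genes gave 55 calls, 19 without the filter, and 13 to 50 as each library was left out. Replication genes gave 27, 12 without the filter, 17 without the trend, and 9 to 29 as each library was left out. A lone library left in a group is assumed to vary like the others. The replicate block lost none of the 41 calls and added 15. The cause of these changes was not tested. Removing the filter added 4015 genes with low values to the fit, and the prior went from 6.89 to 2.74 degrees of freedom. Depth is not recorded in TPM, so its limit could not be given.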

Other observations

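The ratio of MAD2L1 to CDC20 transcripts, an inhibitor and the protein it captures, was chosen after the values were seen. It was 1.03 and 0.877 in DMSO, and 0.683 and 0.502 with JG342, so the treatments did not overlap. No test was made of it. Ratios of other pairs are given as values. CCNB1 to CDK1 was 0.707 and 0.748 in DMSO and 0.704 and 0.833 in JG342, with overlap. BIRC5 to AURKB was 0.569 and 0.520 in DMSO and 0.514 and 0.463 in JG342, without overlap. CCNB1 to CCNB2, the cyclin B paralogs, was 1.14 and 1.13 in DMSO and 0.896 and 0.978 in JG342, again without overlap. MYBL2 to FOXM1 was 3.16 and 3.64 in DMSO and 2.89 and 3.41 in JG342, with overlap. The ratios of CCNA2 to CDK1, NUF2 to NDC80, SMC4 to SMC2 and PLK1 to AURKA were also taken, and their treatments overlapped. With 2 against 2 libraries, a full separation of the treatments has an exact permutation p of 0.333.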
